A study of Mus musculus with 24 samples.

Results

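Transcripts of 10 genes of the cytosolic heat shock system were followed in the CA1 field of the mouse hippocampus. The members were chosen by symbol: Dnajb1, Hsph1, Hspa1a, Hspa1b, Hspa8, Hspa4l, Hsp90aa1, Hsp90ab1, Hspb1 and the transcription factor gene Hsf1. All 10 were found, of 38355 genes counted, and all 10 passed the filter on low counts in each of 7 comparisons. Polyadenylated RNA of CA1 dissected from C57BL/6J mice of 3 to 5 months was sequenced in 24 libraries. The groups were Kat2a fl/fl mice that also carried CamKII_alpha-cre+, called cKO, with 15 min of novelty exposure (7 libraries), cKO mice with no exposure, called naive (6 libraries), Kat2a fl/fl control mice with 15 min of novelty exposure (5 libraries) and naive control mice (6 libraries). Kat2a encodes a lysine acetyltransferase, its alleles were floxed in all 4 groups, and the CamKII-alpha promoter drives Cre in excitatory neurons of the forebrain, so other cells of CA1 kept the gene. Control mice carried no Cre, so presence of Cre and loss of Kat2a cannot be told apart. The comparisons of the design are novelty against naive within each genotype and cKO against control within each exposure.

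Heat shock proteins keep other proteins folded. In the Hsp70 cycle, a J-domain protein such as Dnajb1 hands a client to an Hsp70 such as Hspa8, the constitutive form, or Hspa1a and Hspa1b, the inducible forms, and Hsp110 proteins such as Hsph1 and Hspa4l exchange the nucleotide that releases it. The Hsp90 proteins, encoded by Hsp90aa1 and Hsp90ab1, finish the folding of kinases and steroid receptors, and the small protein Hspb1 holds unfolded clients and binds actin. Hsf1 activates the inducible members after heat or proteotoxic stress through heat shock elements, inverted repeats of the letters GAA, and is held inactive by chaperones in unstressed cells. Neurons are known to hold much constitutive Hspa8 and Hsp90 and to induce Hspa1a and Hspa1b less readily than glia.

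Libraries held 10.7 to 35.8 M assigned reads, with a median of 19.0 M, and levels are given as CPM, reads per M of the library after TMM scaling. A gene rose, fell or passed where its edgeR adjusted p was below 0.05 (Benjamini-Hochberg over all genes tested), and a log2 fold change is novelty over naive or cKO over control. Kat2a measured 31.2 to 39.3 CPM in cKO libraries, against 56.0 to 70.3 CPM in control libraries, and the activity marker Fos measured 20.1 to 55.0 CPM after novelty, against 2.02 to 6.30 CPM in naive libraries. By these genes every library stood on the side its label gives. Markers of CA1 pyramidal neurons summed to 522 to 655 CPM in cKO and 590 to 779 CPM in control libraries over 5 genes, and none of them was at 0 in most libraries. Markers of other cells were present in all groups, among them those of interneurons and of endothelium and pericytes, given with the results of the same comparisons. In such bulk tissue, fewer cells of a type and less RNA per cell cannot be told apart. Whether each library is another mouse is not stated in the labels, and p-values measure only the spread between libraries. The labels give no batch. Libraries numbered 1 to 3 in the titles and those numbered 4 and above were also fitted apart, as a possible split of the work.

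The promoters of members that moved, or that are near copies of each other, are printed to show which carry the letters of a heat shock element. RefSeq windows of 300 bases, 250 before and 50 after the transcription start, existed for 6 members in the table for GRCm38.p6, and the window nearest the deposited gene start was taken. No entry was found for Hspa8, Hsp90aa1, Hsp90ab1 and Hsf1. Sequences run 5′ to 3′ on the strand of the gene in lower case, and capitals mark the 2-unit element, GAANNTTC or TTCNNGAA, letters that read the same on both strands, including where such elements overlap.
Dnajb1, chr8:83607925-83608224, plus strand: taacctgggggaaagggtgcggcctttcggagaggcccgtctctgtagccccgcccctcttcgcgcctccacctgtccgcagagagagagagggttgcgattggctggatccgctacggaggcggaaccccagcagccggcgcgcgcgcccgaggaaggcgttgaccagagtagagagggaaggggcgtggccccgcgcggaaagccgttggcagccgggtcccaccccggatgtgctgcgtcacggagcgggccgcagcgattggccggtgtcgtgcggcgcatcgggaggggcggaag
Hsph1, chr5:149636287-149636586, minus strand: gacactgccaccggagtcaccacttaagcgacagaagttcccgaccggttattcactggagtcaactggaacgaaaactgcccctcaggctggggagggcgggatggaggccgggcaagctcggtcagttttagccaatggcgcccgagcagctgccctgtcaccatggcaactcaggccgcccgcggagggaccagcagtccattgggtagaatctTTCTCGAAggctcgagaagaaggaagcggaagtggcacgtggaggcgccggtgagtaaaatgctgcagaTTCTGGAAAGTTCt
Hspb1, chr5:135887669-135887968, plus strand: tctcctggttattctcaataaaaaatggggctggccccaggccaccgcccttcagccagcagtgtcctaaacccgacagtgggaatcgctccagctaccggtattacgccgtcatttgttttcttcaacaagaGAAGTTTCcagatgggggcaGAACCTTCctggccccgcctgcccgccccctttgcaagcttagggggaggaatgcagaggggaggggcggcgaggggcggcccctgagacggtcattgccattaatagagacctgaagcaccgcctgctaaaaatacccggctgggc
Hspa1a, chr17:34972107-34972406, minus strand: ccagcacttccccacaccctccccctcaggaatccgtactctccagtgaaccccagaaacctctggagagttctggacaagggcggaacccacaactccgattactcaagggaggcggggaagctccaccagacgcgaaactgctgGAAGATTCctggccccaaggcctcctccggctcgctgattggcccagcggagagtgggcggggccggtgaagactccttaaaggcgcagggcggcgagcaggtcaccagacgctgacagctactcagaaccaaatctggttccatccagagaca
Hspa1b, chr17:34959189-34959488, minus strand: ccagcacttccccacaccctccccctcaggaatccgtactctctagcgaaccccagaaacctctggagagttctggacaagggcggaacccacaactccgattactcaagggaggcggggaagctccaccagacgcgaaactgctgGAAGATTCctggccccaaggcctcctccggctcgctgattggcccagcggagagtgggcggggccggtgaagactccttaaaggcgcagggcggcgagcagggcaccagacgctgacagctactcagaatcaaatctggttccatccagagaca
The 2-unit element was found in 4 of the 6 windows, those of Hsph1, Hspb1, Hspa1a and Hspa1b, and 15.1% of all 32817 promoter windows held it. Counted from the start, it began at -33, 36 and 41 in Hsph1, at -117 and -97 in Hspb1, and at -104 in both Hspa1a and Hspa1b. The last 2 elements of Hsph1 overlap and form the 3-unit element (GAANNTTCNNGAA, or TTCNNGAANNTTC on the other strand), which 0.603% of all windows held. The windows of Dnajb1 and Hspa4l held neither form in these letters, that of Hspa4l lying 1118 bases from the deposited gene start, and no member window held the cAMP response element TGACGTCA, found in 1.79% of all windows. The Hspa1a and Hspa1b windows were identical at 296 of 300 bases.

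By level per kilobase of exon, Hsp90ab1 was at the top and Hspb1 at the bottom. Exon length was that of all annotated exons of a gene merged, 4301 bases in Hspa8 and 11792 bases in Hspa4l. A gene whose transcripts use only part of these exons gets too low a level per kb. The order below therefore depends on this choice of length, and other lengths were not tried. In control naive libraries, Hsp90ab1 averaged 607 ± 14.2 CPM per kb (SD, n = 6) and Hsp90aa1 143 ± 9.34 CPM per kb. Next came Hspa8 at 67.5 ± 44.6, Hsph1 at 41.5 ± 1.87, Hspa4l at 23.2 ± 1.07 and Dnajb1 at 15.0 ± 0.896 CPM per kb. Hsf1 stood at 4.25 ± 0.305, Hspa1b at 1.24 ± 0.173, Hspa1a at 0.984 ± 0.281 and Hspb1 at 0.792 ± 0.263 CPM per kb. The inducible Hsp70 genes Hspa1a and Hspa1b were near the lower end. Each member exceeded the next in all 24 libraries at Hsp90ab1, Hsph1, Dnajb1 and Hsf1. It did so in 20 libraries at Hsp90aa1 over Hspa8, 17 at Hspa8 over Hsph1, 16 at Hspa4l over Dnajb1, 23 at Hspa1b over Hspa1a and 18 at Hspa1a over Hspb1. Those neighbours did not separate in every library. Hsp90ab1 alone gave 47.9 to 58.3% of the summed CPM of the set per library. Copies in the genome affect several members: of the 50-base windows of the transcripts, 66.3% in Hspa1a, 62.3% in Hspa1b, 50.1% in Hspb1, 47.5% in Hsp90aa1 and 39.4% in Hspa8 also occurred in another gene, against at most 3.4% in the other 5. Reads with more than 1 position were left out of the counts, so the levels of these 5 genes may be too low.

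**Figure D1:**
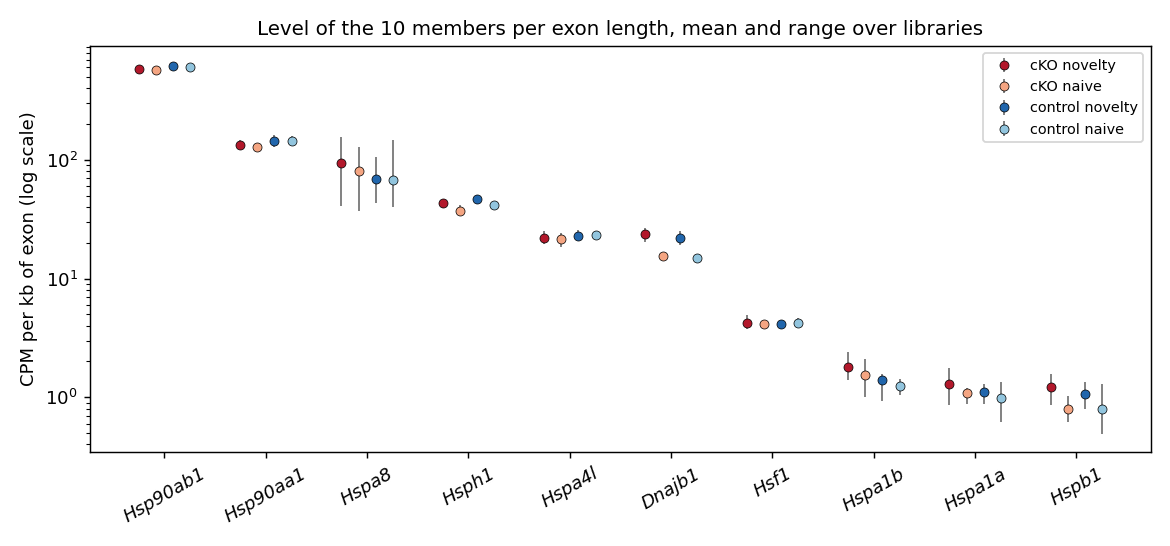
Level of each member in CPM per kb of exon on a log scale, with dots for group means and lines for the range over libraries, in cKO novelty (n = 7), cKO naive (n = 6), control novelty (n = 5) and control naive (n = 6) libraries. Hspa8 has the widest range of the abundant members, 37.0 to 156 CPM per kb over all libraries.

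Novelty was followed by a higher level of Dnajb1 in both genotypes and by a smaller rise of Hsph1. Of the 10 members, 2 rose in cKO mice (1.92% of 16339 genes tested rose and 0.484% fell) and 1 rose in control mice (1.02% of 16100 rose and 0.199% fell), and none fell in either. The median log2 fold change of the members was 0.22 in cKO and 0.08 in control mice, beside -0.01 in both over all genes. The log2 fold change was above 0 in 10 members in cKO mice and in 7 in control mice.

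Dnajb1, the J-domain partner of Hsp70 and a classical Hsf1 target, lies on GRCm38 chromosome 8 at 83608175 to 83611902 (ENSMUSG00000005483). It measured 64.6, 75.6 and 84.9 CPM (lowest, median, highest) in cKO novelty libraries, against 47.0, 49.9 and 51.1 CPM in cKO naive libraries. In control mice it measured 60.8, 67.7, 69.4, 69.5 and 81.0 CPM after novelty, against 42.9, 48.3 and 50.6 CPM in naive libraries. Every novelty library was above every naive library within each genotype. The level rose 1.53-fold in cKO mice (log2 0.61, SE 0.05, edgeR adjusted p = 5.43e-06) and 1.45-fold in control mice (log2 0.53, SE 0.07, edgeR adjusted p = 0.000395). Exact two-sided permutation p was 0.000583 in cKO mice (n = 7 and 6) and 0.00216 in control mice (n = 5 and 6), the smallest that these splits allow. Such exact p-values were computed for the 10 members in 4 comparisons, 40 in all, of which 9 were below 0.05, and they are not adjusted. The gene passed in each of the 13 and 11 fits that left out 1 library. Within libraries numbered 1 to 3 the log2 fold change was 0.58 in cKO mice (edgeR adjusted p = 0.0560) and 0.60 in control mice (edgeR adjusted p = 0.0602), and within those numbered 4 and above 0.64 and 0.48.

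Hsph1, the Hsp110 exchange factor of Hsp70, lies on chromosome 5 at 149614287 to 149636376 (ENSMUSG00000029657). It measured 287, 320 and 335 CPM in cKO novelty libraries, against 244, 273 and 301 CPM in cKO naive libraries. In control mice it measured 309, 331, 333, 352 and 367 CPM after novelty, against 280, 303 and 317 CPM in naive libraries. The groups overlapped, with 5 of 7 cKO novelty libraries and 4 of 5 control novelty libraries above the highest naive library of their genotype. Hsph1 rose by 0.22 on the log2 scale in cKO mice (SE 0.05, edgeR adjusted p = 0.0249). The control value of 0.16 (SE 0.05, edgeR adjusted p = 0.142) did not pass, although DESeq2 called it (adjusted p = 0.0386). In cKO mice the call was lost without cKO naive library 2 (edgeR adjusted p = 0.0707), cKO naive library 3 (0.0520), cKO novelty library 2 (0.0535) or cKO novelty library 6 (0.0559). Within libraries numbered 1 to 3 and those numbered 4 and above, the cKO values were 0.30 and 0.16, and neither passed.

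Hspb1, the small heat shock protein that binds actin, was the member with fewest reads, 8 to 44 per library. It lies on chromosome 5 at 135887919 to 135889563 (ENSMUSG00000004951). It measured 0.886, 1.16 and 1.62 CPM in cKO novelty libraries, against 0.640, 0.815 and 1.05 CPM in cKO naive libraries. In control mice it measured 0.828, 0.938, 1.09, 1.26 and 1.38 CPM after novelty, against 0.507, 0.755 and 1.32 CPM in naive libraries. The groups overlapped in both genotypes, and in control mice 1 naive library lay above 4 of the 5 novelty libraries. The log2 fold change was 0.62 in cKO (SE 0.19, edgeR adjusted p = 0.103) and 0.43 in control mice (SE 0.23, edgeR adjusted p = 0.539), and neither passed. Of its windows, 48.8% also occurred in the pseudogene Hsp25-ps1, and with the reads of both genes summed the cKO value was 0.66 and passed (edgeR adjusted p = 0.0306), an alternative chosen after seeing the data.

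**Figure D2:**
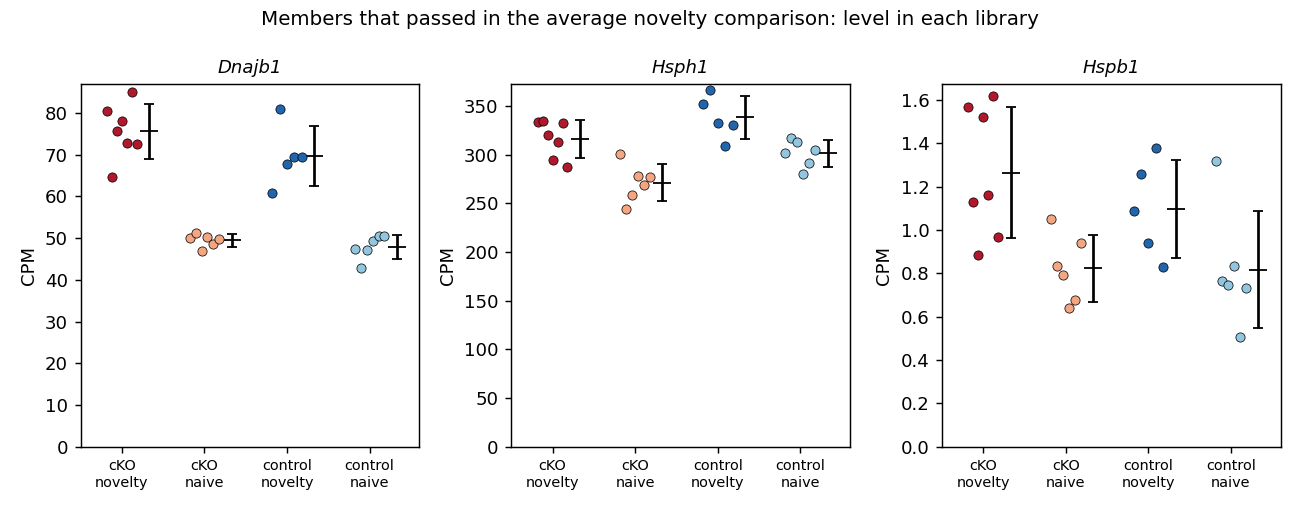
Level in CPM of Dnajb1, Hsph1 and Hspb1 in each library by group, with dots for libraries and lines for mean and SD. The Dnajb1 dots of the novelty groups lie at 60.8 CPM or above and those of the naive groups at 51.1 CPM or below, whereas the dots of Hsph1 and Hspb1 overlap between the exposures.

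The other 7 members passed in neither genotype after novelty. The inducible Hsp70 genes had log2 fold changes of 0.27 and 0.18 for Hspa1a and 0.22 and 0.15 for Hspa1b, in cKO and control mice, with adjusted p of 0.421 to 0.834 in edgeR. Their levels were low, at 1.83 to 5.24 CPM for Hspa1a and 2.59 to 6.75 CPM for Hspa1b over all libraries. The 95% intervals, -0.01 to 0.55 and -0.12 to 0.55 in cKO mice, leave room for a rise of up to 0.55. Hsp90ab1 was measured much more closely, at 0.03 (95% interval -0.04 to 0.10) in cKO and 0.01 (-0.06 to 0.08) in control mice. Hsp90aa1 stood at 0.04 and -0.01, the Hsp110 gene Hspa4l at 0.03 and -0.02, and Hsf1 itself at 0.05 and -0.06. The interval of Hsf1 in cKO mice was -0.06 to 0.16, so a rise as large as that of Dnajb1 lay outside it.

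**Figure D3:**
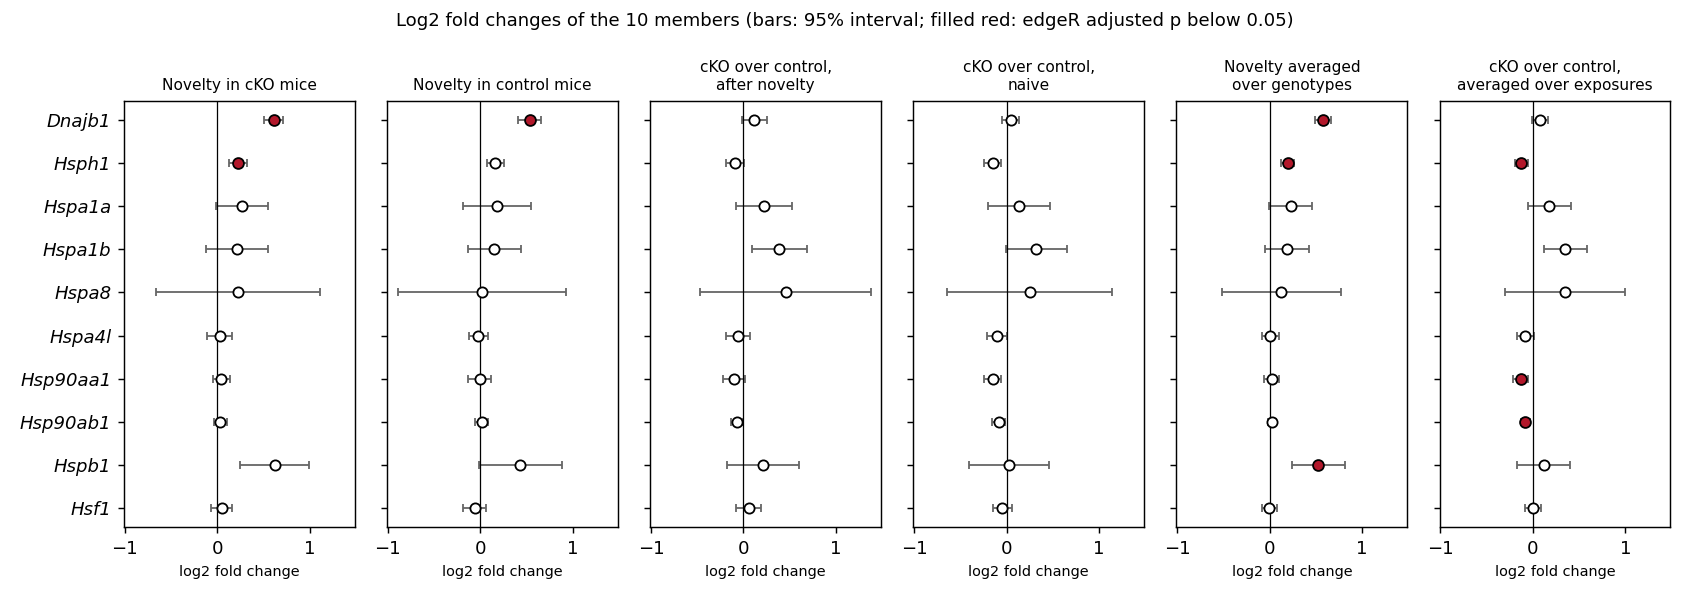
Log2 fold change of each member in the 4 pairwise and 2 averaged comparisons, with lines for the 95% interval and filled red dots for edgeR adjusted p below 0.05. Dnajb1 passed in all 3 novelty panels, and Hsph1, Hsp90aa1 and Hsp90ab1 passed as lower in cKO mice only in the panel averaged over exposures.

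In the fit over all 24 libraries, 3 members rose with novelty averaged over genotypes, whereas 4.43% of 16744 genes did, and no member fell, whereas 2.13% of genes did. The 3 were Dnajb1 (log2 0.58, SE 0.04, edgeR adjusted p = 6.41e-10), Hsph1 (log2 0.20, SE 0.04, edgeR adjusted p = 0.000672) and Hspb1 (log2 0.53, SE 0.15, edgeR adjusted p = 0.0254). The members' median was 0.16, beside -0.01 over all genes. This fit uses the libraries of both pairwise novelty comparisons, so it adds no independent replicate. Dnajb1 and Hsph1 passed in all 24 fits without 1 library, and Hspb1 lost its call without control novelty library 2 (log2 0.49, edgeR adjusted p = 0.0710). Hspb1 summed with Hsp25-ps1 gave 0.57 (edgeR adjusted p = 0.00411). Dnajb1 also passed within libraries numbered 1 to 3 (0.59) and within those numbered 4 and above (0.56). Hsph1 passed in the first part (0.24) and not in the second (0.15, edgeR adjusted p = 0.103), and Hspb1 in neither (0.33 and 0.72). Among cell type markers, the endothelial gene Cldn5 fell by 0.32 and the pericyte gene Pdgfrb by 0.20 with novelty in this fit. These calls held in 12 and 7 of 24 fits without 1 library. A log2 fold change above 0 was found in 3 of the 5 endothelial and pericyte markers. The median of these 5 was 0.01, beside -0.01 over all genes. Of 5 microglia markers, P2ry12 fell by 0.16 and Tmem119 rose by 0.14. The 5 endothelial and pericyte markers summed to 171 to 242 CPM in cKO novelty, 168 to 229 CPM in cKO naive, 221 to 239 CPM in control novelty and 220 to 262 CPM in control naive libraries, none of them at 0 in most. Their part in the Hspb1 result was not tested.

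No difference between the genotypes in the response to novelty was detected. The interaction, cKO response minus control response, was above 0 in all 10 members, by 0.01 for Hsp90ab1 to 0.20 for Hspa8 (SE 0.66). The members' median was 0.07, beside 0.002 over all genes, and the share of all genes above 0 was not counted. All members were measured in the same libraries, so their common sign is not independent evidence. In edgeR 0 members passed (0% of 16744 genes passed). At an unadjusted p below 0.05, edgeR counted 0 members and 688 genes and DESeq2 0 members and 792 genes, with 0 genes past the adjusted threshold in either. For Dnajb1 the interaction was 0.07 (95% interval -0.09 to 0.24) and for Hsph1 0.05 (-0.09 to 0.19). A Dnajb1 response stronger by over 0.24 or weaker by over 0.09 in cKO mice on the log2 scale therefore lies outside the interval. A difference within the interval remains possible.

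In cKO mice 3 abundant chaperones had slightly lower levels than in control mice. In the average over exposures 3 members fell (6.32% of 16744 genes fell) and 0 rose (5.72% rose). They were Hsph1 at -0.12 (SE 0.04, edgeR adjusted p = 0.0229), Hsp90ab1 at -0.08 (SE 0.02, edgeR adjusted p = 0.0283) and Hsp90aa1 at -0.13 (SE 0.04, edgeR adjusted p = 0.0414), so that the 3 fell by 5.32 to 8.51%. In the pairwise comparisons no member passed, 0 in naive mice (0.801% of 16360 genes passed) and 0 after novelty (4.53% of 16188). At an unadjusted p below 0.05, edgeR counted 3 members in naive mice and 1 after novelty, and DESeq2, with 0 members past its adjusted threshold in either, counted 3 and 2. The members' median was 0.04 in the average, beside 0.01 over all genes.

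Hsph1 measured 244, 273 and 301 CPM in cKO naive libraries, against 280, 303 and 317 CPM in control naive libraries. After novelty it measured 287, 320 and 335 CPM in cKO libraries, against 309, 331, 333, 352 and 367 CPM in control libraries. In naive mice 5 of 6 cKO libraries lay below the lowest control library, and after novelty 2 of 7 did. The log2 fold change was -0.15 in naive mice (edgeR adjusted p = 0.172, exact permutation p = 0.0108, n = 6 each) and -0.09 after novelty (edgeR adjusted p = 0.297, exact permutation p = 0.111, n = 7 and 5). The average lost its call without control novelty library 2 (log2 -0.11, edgeR adjusted p = 0.0586).

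Hsp90ab1, the constitutive Hsp90 (chromosome 17, 45567775 to 45573271, ENSMUSG00000023944), measured 1610, 1708 and 1817 CPM in cKO naive libraries, against 1760, 1828 and 1869 CPM in control naive libraries. After novelty it measured 1668, 1758 and 1844 CPM in cKO libraries, against 1782, 1806, 1860, 1870 and 1910 CPM in control libraries. The groups overlapped, with 4 of 6 and 5 of 7 cKO libraries below the lowest control library of the same exposure. Hsp90aa1, the more inducible Hsp90 (chromosome 12, 110690605 to 110702728, ENSMUSG00000021270), measured 467, 512 and 538 CPM in cKO naive libraries, against 521, 561 and 625 CPM in control naive libraries. After novelty it measured 490, 496 and 576 CPM in cKO libraries, against 500, 511, 580, 583 and 639 CPM in control libraries, with 4 cKO libraries below the lowest control library in each exposure.

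These Hsp90 decreases were near the threshold. Hsp90aa1 passed in 11 of 24 fits without 1 library, with adjusted p up to 0.0986 (without control novelty library 5), and Hsp90ab1 in 21, losing its call without control novelty library 2 (edgeR adjusted p = 0.0547), control novelty library 5 (0.0610) or cKO naive library 3 (0.0502). Without control novelty library 2, none of the 10 members passed. The pseudogene Gm12346 shares 41.8% of the Hsp90aa1 windows. With the reads of both genes summed, chosen after seeing the data, the average was -0.12 (edgeR adjusted p = 0.0435). Gm12346 by itself gave -0.11 (edgeR adjusted p = 0.0550). TMM factors were 0.997 to 1.027 in cKO and 0.972 to 0.997 in control libraries, and with upper-quartile scaling Hsp90aa1 (-0.12, edgeR adjusted p = 0.0650) and Hsp90ab1 (-0.07, edgeR adjusted p = 0.0640) did not pass. Within libraries numbered 1 to 3 and those numbered 4 and above, Hsph1 gave -0.15 and -0.08, Hsp90ab1 -0.08 and -0.08, and Hsp90aa1 -0.09 and -0.16, and none passed in either part. In the same average, 2 of 4 oligodendrocyte markers reported here fell, Mobp by 0.34 and Mog by 0.31, and Mbp and Mag stood at -0.23 and -0.22 without passing. These 4 summed to 1893 to 3774 CPM in cKO and 2718 to 3282 CPM in control libraries. Lower levels were also called for 3 of 6 interneuron markers (Pvalb by 0.30, Gad1 by 0.13, Gad2 by 0.11). The same held for 1 of 5 CA1 pyramidal neuron markers (Man1a by 0.32) and 1 of 5 dentate granule neuron markers (C1ql2 by 0.86). It also held for 1 of 6 CA2 and CA3 markers (Coch by 0.40) and 1 of 5 endothelial and pericyte markers (Rgs5 by 0.25). The CA2 and CA3 list was mixed, with 4 of 6 log2 fold changes above 0, up to 0.67, and a median of 0.06. None of that list passed as higher. No log2 fold change was above 0 among the 5 CA1 pyramidal neuron markers (median -0.20, from -0.32 to -0.07). The same was true of the 6 interneuron markers (median -0.12). Of the dentate granule and of the endothelial and pericyte markers, 1 each lay above 0, with medians of -0.21 and -0.14. Of 5 microglia markers 4 lay above 0 (median 0.07). The median over all genes was 0.01. The interneuron markers summed to 832 to 1014 CPM in cKO and 919 to 1081 CPM in control libraries, and the dentate granule markers to 53.6 to 221 CPM in cKO and 86.9 to 252 CPM in control libraries, and none of these markers was at 0 in most libraries. Their part in the chaperone decreases was not tested.

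The inducible Hsp70 genes lay the other way without passing. Hspa1b (chromosome 17, 34956436 to 34959238, ENSMUSG00000090877) measured 3.91, 4.70 and 6.75 CPM in cKO novelty libraries, against 2.59, 3.86, 4.26, 4.35 and 4.37 CPM in control novelty libraries. In naive mice it measured 2.83, 4.24 and 5.92 CPM in cKO libraries, against 2.93, 3.47 and 3.96 CPM in control libraries. After novelty 5 of 7 cKO libraries exceeded every control library. The average difference was 0.35 (SE 0.12, edgeR adjusted p = 0.0516), and DESeq2 called it (adjusted p = 0.0368). It passed in edgeR with upper-quartile scaling (adjusted p = 0.0447) and in 5 of 24 fits without 1 library, with adjusted p down to 0.0201 without cKO naive library 3. Hspa1a gave 0.18 (SE 0.12, edgeR adjusted p = 0.360), and the reads of both genes summed, chosen after seeing the data, gave 0.28 (edgeR adjusted p = 0.0866). Since 58.8% of Hspa1a windows also occurred in Hspa1b, reads of the pair are hard to assign to one gene. An antisense gene, Gm20481, overlaps 19.01% of the Hspa1a exon bases, and the library kit keeps no strand.

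Hspa8, the constitutive Hsp70 of chromosome 9 (40800984 to 40805200, ENSMUSG00000015656), varied most among the abundant members, within every group. It measured 176, 346 and 669 CPM in cKO novelty libraries, against 159, 349 and 549 CPM in cKO naive libraries. In control mice it measured 184, 189, 205, 437 and 454 CPM after novelty, against 171, 180 and 636 CPM in naive libraries. The SD was 57.4, 47.9, 47.1 and 66.0% of the mean in these groups, in that order, whereas for Hsp90ab1 it was 2.35 to 4.39%. No comparison passed, with log2 fold changes from 0.02 to 0.46 and standard errors of 0.33 to 0.47 in the pairwise and averaged comparisons, and the 95% interval for novelty ran from -0.66 to 1.11 in cKO and from -0.89 to 0.93 in control mice.

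Ordered by level, the libraries were parted by a wide gap between 205 and 334 CPM, a pattern looked for after the values were seen. The 12 libraries above it were divided again between 454 and 505 CPM, the next largest ratio between neighbouring libraries. As a difference in CPM this gap was no wider than that between 549 and 611 CPM. Hspa8 itself therefore does not clearly mark this second division. The lowest range, 159 to 205 CPM, held 12 libraries, of which 3 were cKO novelty, 2 cKO naive, 3 control novelty and 4 control naive. The next, 334 to 454 CPM, held 6 libraries (1 cKO novelty, 2 cKO naive, 2 control novelty and 1 control naive). The highest, 505 to 669 CPM, held 6 (3 cKO novelty, 2 cKO naive, 0 control novelty and 1 control naive). Each exposure and each genotype thus had libraries in the highest and lowest ranges, and libraries numbered 1 to 3 made up 5, 4 and 3 of the 3 ranges. Gm15459, a pseudogene on chromosome 5 (5781530 to 5783607) that shares 34.6% of the Hspa8 windows, ran in the opposite order. It measured 83.6 to 104 CPM in the libraries of the lowest Hspa8 range, 51.9 to 72.5 CPM in the next and 17.5 to 27.2 CPM in the highest, without overlap. Whether these values reflect the amount of Hspa8 transcript, or differences between libraries in sequence at the locus and so in how reads were assigned to Hspa8 and Gm15459, was not tested. With the reads of Hspa8 and Gm15459 summed, chosen after seeing the data, the log2 fold changes were 0.05 to 0.28 in the 6 comparisons and none passed.

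Genes elsewhere on chromosome 9 ranked the libraries like Hspa8, in the same or the inverse order. Of the 20 genes whose rank over the 24 libraries was most like that of Hspa8 in either direction, 9 lay on chromosome 9, between 35124408 and 64173104, 6 in inverse and 3 in the same order, whereas 5.77% of the 13242 genes ranked lie on that chromosome. The most alike were Dcps, a decapping enzyme gene at 35124408 to 35176061, in inverse order, and Sc5d, a sterol synthesis gene at 42251595 to 42264256, in the same order. Sc5d measured 57.8 to 65.4 CPM in the libraries of the highest Hspa8 range, 47.0 to 55.5 CPM in the next and 34.3 to 55.5 CPM in the lowest. Dcps measured 12.9 to 17.4 CPM in the highest range and 18.4 to 22.7 CPM in the lowest. The 6 libraries highest in Hspa8 were also the 6 highest in Sc5d and the 6 lowest in Gm15459. These ranges were defined by Hspa8 itself, so they are described without a test.

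**Figure D4:**
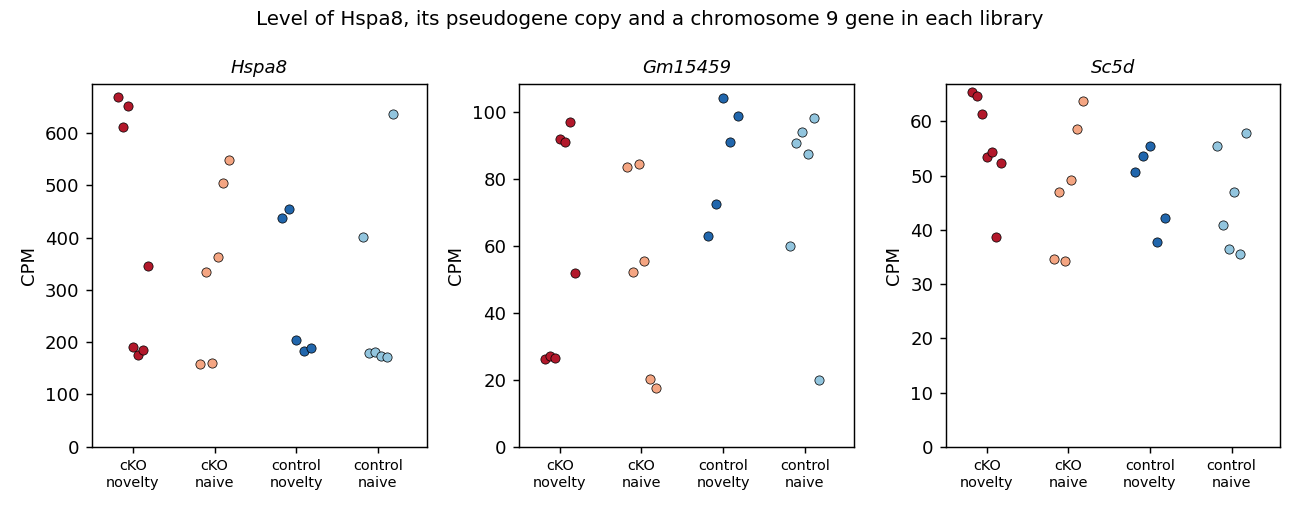
Level in CPM of Hspa8, of the pseudogene Gm15459 that shares sequence with it and of Sc5d, another gene of chromosome 9, in each library by group (dots are libraries). Hspa8 dots lie at 159 to 205 CPM or at 334 to 669 CPM in every group, and the Gm15459 dots lie at 83.6 CPM or above in the libraries of the lower Hspa8 set and at 72.5 CPM or below in the others.

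Some members varied together, or in opposite directions, between libraries of the same group. The share of other gene pairs that do so was not measured, so these correlations are not shown to be particular to the members. Over 45 pairs of members, log2 CPM centred within groups was correlated over 24 libraries, and 4 pairs passed at an adjusted p below 0.05 over the pairs (two-sided permutation within groups, 100000 draws). Hsph1 and Hsp90ab1, the exchange factor and the constitutive Hsp90, gave r = 0.67 (rho = 0.66, permutation p = 0.00152, adjusted p = 0.0188). Hspa4l and Hsp90aa1 gave r = 0.64 (rho = 0.68, permutation p = 0.00167, adjusted p = 0.0188), and the near copies Hspa1a and Hspa1b gave r = 0.59 (rho = 0.59, permutation p = 0.00076, adjusted p = 0.0171). Hsp90aa1 and Hsf1 ran in opposite directions (r = -0.73, rho = -0.74, permutation p = 0.00016, adjusted p = 0.0072). Without the 2 libraries farthest from the median, r was 0.65, 0.56, 0.59 and -0.67 in the order given. Dnajb1 passed with no other member. In libraries numbered 1 to 3 and in those numbered 4 and above, the 4 pairs kept their sign, with r of 0.75 and 0.65, 0.66 and 0.64, 0.46 and 0.90, and -0.79 and -0.48. No pair passed within either part, and without cKO novelty library 1 the number that passed was 2.

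The genes most like Dnajb1 and Hsph1 over the same centred values were ranked among 11972 genes, as a description. For Dnajb1 they were Spr (r = 0.77), the activity-induced transcription factor gene Fosb (r = 0.76), Mxd1 (r = 0.76), Tmem151b (r = 0.75) and the mitochondrial carrier gene Slc25a25 (r = 0.73). For Hsph1 they were Tex2 (r = 0.87), the RNA-binding protein gene Hnrnpc (r = 0.85), the lipase gene Abhd6 (r = 0.83), the Hsp110 gene Hspa4 (r = 0.82) and the phosphatase gene Ptpn9 (r = 0.81).

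Around the members, 9 lists of other chaperone genes held 71 genes. With novelty averaged over genotypes, 13 of 69 tested rose and 1 fell (4.43% of all genes rose and 2.13% fell), and the median was 0.01, beside -0.01 over all genes. Endoplasmic reticulum chaperones gave 5 of 11, J-domain co-chaperones 3 of 10, Hsp90 co-chaperones 3 of 12, and 1 each came from the Hsp70 exchange factors and the other Hsp70 genes. No gene of the cytosolic chaperonin (8), of the mitochondrial chaperones (5) or of the other heat shock factors (3) passed. In single genotypes, 5 of the 69 rose in cKO mice, where 1.92% of all genes did, and 2 in control mice, where 1.02% did.

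Dnajb5, a J-domain protein of the same subfamily as Dnajb1, measured 171, 195 and 219 CPM in cKO novelty libraries, against 117, 131 and 145 CPM in cKO naive libraries. In control mice it measured 178, 196, 207, 212 and 221 CPM after novelty, against 130, 135 and 142 CPM in naive libraries. The exposures did not overlap in either genotype, and the rise was 0.56 in cKO mice (SE 0.06, edgeR adjusted p = 0.000161) and 0.58 in control mice (SE 0.05, edgeR adjusted p = 3.4e-05), a size like that of Dnajb1. Bag3, the exchange factor that links Hsp70 to autophagy and small heat shock proteins, measured 9.56, 10.5 and 12.3 CPM in cKO novelty libraries, against 5.72, 6.88 and 7.81 CPM in cKO naive libraries. It rose by 0.66 in cKO mice (SE 0.09, edgeR adjusted p = 0.000423), and in control mice gave 0.38 (SE 0.09, edgeR adjusted p = 0.0677) without passing. The control exposures did not overlap either, at 8.51 to 10.9 CPM after novelty and 6.18 to 7.98 CPM in naive libraries. Bag3 passed as higher in the average over genotypes. That the response differs between genotypes was not shown, since the Bag3 interaction of 0.27 (SE 0.12) did not pass (edgeR adjusted p = 1). Hspa5, the Hsp70 of the endoplasmic reticulum, rose by 0.41 in cKO and 0.30 in control mice, the control call holding in 4 of 11 fits without 1 library, and Chordc1, an Hsp90 co-chaperone, by 0.29 in cKO mice. In control mice Chordc1 averaged 69.6 CPM after novelty and 63.4 CPM in naive libraries and did not pass. It passed as higher in the average over genotypes. Hspb3, a small heat shock protein gene named after its values were seen, fell by 0.69 in the average and passed in 21 of 24 fits without 1 library. Its level is not given here, and no gene of its list passed as lower in either genotype alone.

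By genotype averaged over exposures, 3 of 69 genes rose and 10 fell in cKO mice (5.72% of all genes rose and 6.32% fell), with a median of -0.03 beside 0.01 over all genes. The cytosolic chaperonin, the ring complex that folds actin and tubulin, had 4 of 8 subunits that fell, Cct4 by 0.21, Cct7 by 0.20, Cct8 by 0.09 and Tcp1 by 0.08, the last 2 named after their values were seen. The calls held in all 24 fits without 1 library, except that of Cct8, which held in 20. Cct4 measured 85.7 to 94.1 CPM in cKO naive libraries, against 104 to 116 CPM in control naive libraries. Those groups did not overlap, and its log2 fold change of -0.27 passed in naive mice (SE 0.04, edgeR adjusted p = 0.00488). After novelty Cct4 overlapped, at 93.9 to 102 CPM in cKO and 95.7 to 116 CPM in control libraries, and did not pass. Cct7 measured 187 to 210 CPM in cKO novelty libraries, against 218 to 234 CPM in control novelty libraries, and its -0.22 passed after novelty (SE 0.04, edgeR adjusted p = 0.00295). Of Hsp90 co-chaperones 2 of 12 fell, Ptges3, known as p23, and Fkbp4, an immunophilin of steroid receptors also named after its value was seen, each by 0.16. Mitochondrial chaperones gave 2 of 5 lower, endoplasmic reticulum chaperones 1 of 11 lower, and J-domain co-chaperones 0 of 10. Bag2, an inhibitor of the ubiquitin ligase that tags Hsp70 clients, rose by 0.27 in the average over exposures. After novelty it measured 10.1 to 13.8 CPM in cKO libraries, against 8.93 to 9.81 CPM in control libraries, and passed. In naive mice the groups overlapped, with cKO libraries at 10.5 CPM or above and control libraries up to 10.8 CPM. Bag2 did not pass in naive mice.

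**Figure D5:**
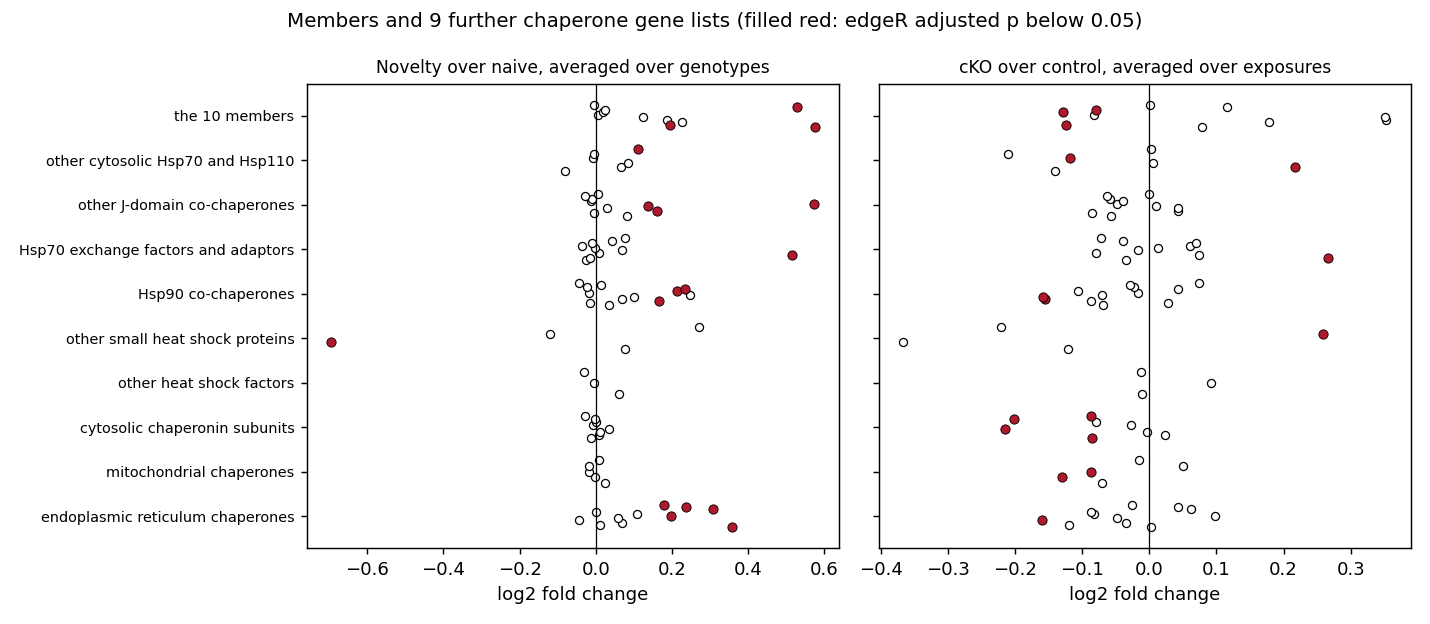
Log2 fold change of the 10 members and of each tested gene of 9 further chaperone lists, for novelty over naive averaged over genotypes and for cKO over control averaged over exposures, with filled red dots for edgeR adjusted p below 0.05. Rises after novelty gather in the endoplasmic reticulum, J-domain and Hsp90 co-chaperone rows, and 4 of 8 chaperonin subunits are filled to the left in the genotype panel.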

How the data were processed

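RNA of dissected mouse CA1 was measured in 24 polyA libraries made with a TruSeq RNA kit, which marks no strand. The submitters' processing notes name STAR 2.3.0, HTSeq, DESeq2 and the build GRCm38.p2, without saying which step each served. Annotation release, strand setting and read layout: not given in the sources used here. The deposited files held raw counts per gene, and 5 summary entries per library were left out: reads in no gene made up 7.58 to 10.36% of all, ambiguous reads 1.06 to 1.18% and reads with no unique position 14.82 to 17.97%. Of the authors' deposited comparison tables, with normalized signal, log2 fold change and p-value columns, only gene names and positions were used. Symbols came from those tables for 16355 genes and from a reference table for 20435, and 1565 had none.

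edgeR 4.0.16 in R 4.3.3 (TMM, filterByExpr with minimum count 10, quasi-likelihood test, Benjamini-Hochberg over all genes) was fitted per comparison on its own groups. Both averages and the interaction came from 1 fit over 24 libraries. Standard errors come from the quasi-likelihood F statistic and 95% intervals from a normal approximation. Log2 CPM used a prior count of 2. Lengths came from merged GENCODE exons and 50-base windows from GENCODE transcripts. The comparisons that share a group share its libraries. The scripts were tested on simulated data. DESeq2 1.42.0, other scalings, no count filter, a replicate block, an all-library fit, parts of the libraries and leaving out each library were alternatives.

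The members and lists were chosen with earlier results of these data known. Named genes were the members, up to 4 called pathway genes per comparison with the smallest p, and the 5 genes most like Dnajb1 and Hsph1. Depth sets precision at the low end, where Hspb1 had 8 to 44 reads. The full oligodendrocyte marker list is not reported here.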

Additional observations from a re-analysis of the deposited data

Results flagged for a closer look

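Among 40 combinations of member and group, 1 library stood far from the rest of its group. Hspa1b measured 2.59 CPM in control novelty library 3, whereas the other 4 control novelty libraries measured 3.86 to 4.37 CPM. The gap to the nearest library was 0.714 of the range of the group. Chance marks about 1 in 20 groups in this way.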

How the results depend on the processing

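Over 705 values of single members under alternatives, the call was the same in 679, was lost in 21 and was gained in 5, and no called value changed sign, although 49 values that passed in neither fit did. Members called after novelty in control mice numbered 2 with DESeq2 and 0 in libraries numbered 1 to 3, against 1. In cKO mice they numbered 0 in libraries numbered 1 to 3, 1 in those numbered 4 and above and 1 to 2 with 1 library left out, against 2. For novelty averaged over genotypes they numbered 1 in libraries numbered 4 and above and 2 to 3 with 1 library left out, against 3. For genotype averaged over exposures they numbered 0 in either part of the libraries and 0 (without control novelty library 2) to 4 with 1 library left out, against 3. Correlated pairs of members numbered 0 in either part and 2 to 6 with 1 library left out, against 4. Both parts hold fewer libraries than the whole.

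Most same-numbered libraries did not deviate together. A correlation above 0.1 was found in 0 of 5 pairs for novelty in control mice and 1 of 6 for novelty in cKO mice. It was found in 1 of 6 pairs for genotype in naive mice and 1 of 5 for genotype after novelty. The highest values were 0.04, 0.25, 0.28 and 0.27 in that order, beside medians of -0.01 to 0.01 over other pairs. The numbers were therefore not taken to pair samples. With the replicate number as a block, 1 member was called after novelty in control mice, 2 in cKO mice and 3 in the average over genotypes, 0 in both pairwise genotype comparisons, 2 in the average over exposures, where Hsp90aa1 gave -0.12 (edgeR adjusted p = 0.0624), and 0 in the interaction.

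Counts of all genes called moved more. Novelty in cKO mice gave 393 genes, and 639 with DESeq2, 207 with the block, 15 and 70 in the parts numbered 1 to 3 and 4 and above, and 238 to 452 with 1 library left out. Novelty in control mice gave 196 genes, and 373 with DESeq2, 97 with the block, 25 in libraries numbered 1 to 3, 305 in the all-library fit and 113 to 255 with 1 library left out. Genotype in naive mice gave 131 genes, and 457 with DESeq2, 70 with the block, 3 and 5 in the parts, 322 in the all-library fit and 40 to 166 with 1 library left out. Genotype after novelty gave 733 genes, and 1155 with DESeq2, 398 with the block, 17 and 121 in the parts, and 324 to 1025 with 1 library left out. The averages gave 1097 for novelty (206 and 369 in the parts) and 2017 for genotype (402 and 405 in the parts). The cause of these shifts was not tested. The fewest reads were those of Hspb1, Hspa1a and Hspa1b, at 8 to 153 per library.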
